A study of Mus musculus with 2 samples.

Results

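The preputial gland (PG) of the mouse is an enlarged, specialised sebaceous gland, and its sebocytes (SEB) were examined here as 1 group of differentiated cells. The rule took the deposited PG matrix, kept barcodes with at least 500 genes, at least 1000 unique molecular identifiers (UMIs) and at most 10% mitochondrial UMIs, and chose those with at least 200 *Dbi* UMIs per 10000 and a UMI in at least 2 of the 6 lipid genes *Awat2*, *Elovl3*, *Cidea*, *Mc5r*, *Soat1* and *Plin2*. It found 322 cells among 4699 kept PG barcodes, which is 6.85% (exact 95% binomial interval 6.15 to 7.61%), and among 13598 kept barcodes of both tissues. The study sequenced single cells of back skin and PG from 3 male wild type C57BL/6 mice aged 52 weeks, and the material of the mice was pooled for each tissue. There is therefore 1 library per tissue, spread between mice could not be measured, no test was possible, and every interval covers counting error only. No kept barcode was shared between the libraries (0 barcodes).

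SEB are epithelial cells that arise from basal progenitors, fill with lipid droplets and finally disintegrate, so that the whole cell becomes the secretion. Their lipid mixture is built from fatty acids made in the cytosol, desaturated and elongated in the endoplasmic reticulum, and esterified to glycerol, fatty alcohols or sterols. Wax esters need a fatty alcohol made by a reductase at the peroxisome, and sterols come from the mevalonate pathway. In rodents the PG also releases volatile compounds used in scent marking.

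The 322 SEB held 2131725 UMIs, 14.0% of all UMIs of kept PG barcodes. A single SEB had between 1174 and 15458 UMIs, with a median of 6678 UMIs and 2062 genes. The 4377 other kept PG barcodes had a median of 2622 UMIs and 1104 genes. After every cell was thinned to 1000 UMIs the medians were 550.5 genes in SEB and 558 in the other cells, so at equal depth SEB did not show more genes. The lipid gene part of the rule is met more easily by deep barcodes: the 655 barcodes that met it without the *Dbi* part had a median of 4233 UMIs, and the 50 that met the *Dbi* part alone had 2372.5. The mitochondrial share was similar, with medians of 3.61% in SEB and 2.98% in the other cells.

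The genes used for the choice are described first. The cells were selected on them, so their levels are no support for the cell type label. Of these genes, *Awat2* and *Dbi* serve further below to divide SEB, as a description only. *Dbi*, which encodes the acyl-CoA-binding protein that carries activated fatty acids, reached 200.2 UMIs per 10000 in the lowest SEB, 291.9 in the median and 663.9 in the highest. The median over the other kept cells was 23.4 and the highest of them held 487. The boundary cut through a continuous range, as the plot of *Dbi* by number of lipid genes shows. The SEB nearest the threshold held 106 *Dbi* UMIs of 5295 (200.189 per 10000), and the nearest cell outside held 66 of 3309 (199.456 per 10000). By number of lipid genes, 119 SEB had UMIs in 2 of the 6 genes, 92 in 3, 73 in 4, 38 in 5, and 0 in all 6.

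**Figure D1:**
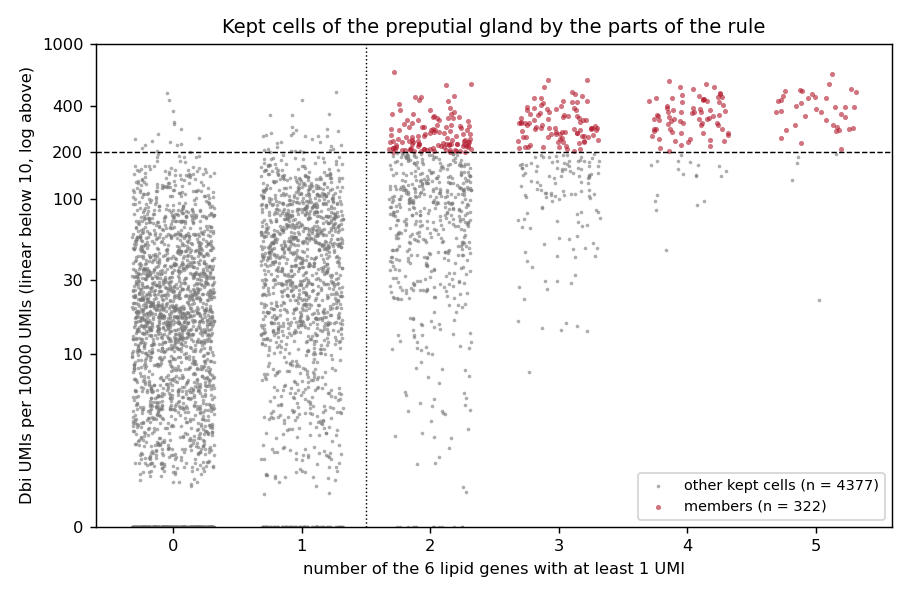
Each point is 1 kept PG barcode; the x axis gives the number of the 6 lipid genes with a UMI (points are spread sideways at random) and the y axis *Dbi* UMIs per 10000, with the dashed line at 200. The 322 SEB (red) lie above the line at 2 or more lipid genes, next to cells of the same lipid gene count that continue below it.

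The 6 lipid genes were present to very different degrees. *Plin2*, the coat protein of lipid droplets, had a UMI in 319 SEB, and *Cidea*, which promotes droplet fusion, in 308. *Soat1*, which esterifies cholesterol, was seen in 160, *Mc5r*, the melanocortin receptor of exocrine glands, in 108, and *Awat2*, which joins fatty acids to long-chain alcohols, in 93. *Elovl3*, an elongase of very long-chain fatty acids and a familiar SEB marker of skin, was nearly absent, with 18 UMIs in 8 cells. In UMIs per 1000000 UMIs of the group (CPM), SEB and other cells held 1260 and 345 of *Plin2*, 641 and 105 of *Cidea*, and 1330 and 12.7 of *Awat2*. In practice the rule was therefore met mostly through *Plin2* and *Cidea*.

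The cell type label was set beside 11 SEB markers that the rule did not use. This list was chosen with earlier results of these data known, so it is a description and no independent check. UMIs in 3 or more of them were found in 309 SEB (96.0%) and in 945 other cells (21.6%), but SEB were the deeper cells. With every cell thinned to 1000 UMIs these numbers were 209 SEB (64.9%) and 267 other cells (6.1%). *Mgst1*, a microsomal glutathione transferase, stood at 9775 CPM in SEB and 1626 in the other cells, *Scd1*, the desaturase that makes oleate, at 4973 and 457, and *Fasn*, the fatty acid synthase, at 483 and 78.8. *Elovl4* went the other way with 2.81 and 39.4 CPM, *Pparg*, a nuclear receptor of lipid-storing cells, differed little with 30.5 and 24.97, and *Plin5*, *Cidec* and *Far2* were below 10 CPM in both. The abundant lipid enzymes thus went with the label, and not each marker known from skin did.

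Summed markers of other cell types were lower in SEB than in the other cells. The 6 fibroblast markers, led by *Dcn*, summed to 87.3 CPM in SEB and 2084 in the other cells, and the 8 immune markers, led by *Cd74*, to 93.8 and 1867, with *Ptprc* at 0 UMIs in SEB. Smooth muscle markers summed to 6.57 and 246 CPM, with *Myh11* at 0, and endothelial markers to 0.47 and 33.5, with 4 of 5 at 0. Melanocyte markers summed to 1.41 and 2.44, adipocyte markers to 2.35 and 9.89, and red blood cell markers to 11.7 and 44.3 CPM. Basal markers, led by *Krt14*, summed to 1184 and 4117 CPM, suprabasal markers, led by *Krtdap*, to 172 and 1768, and the 4 duct markers to 1923 and 12803. The duct sum was mostly *Cst6*, with 1275 and 10314 CPM, and *Krt17* was lower too, with 87.7 and 1946. *Krt79* and *Atp6v1c2* did not share this, with 537 and 521 CPM and 22.5 and 23.0, and after thinning *Krt79* had a UMI in 39.1% of SEB and 14.99% of the other cells. At full depth, UMIs in 3 or more markers were found for the basal list in 68 SEB, for the duct list in 29, for the fibroblast list in 8 and for the immune list in 2.

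Across genes the SEB profile was marked by a small set of genes that were much higher than in the rest of the gland and a larger set that were lower. Of 8457 genes with at least 10 CPM in SEB or in the other cells, 157 were at least 4-fold higher in SEB with an interval that left out equality (1.86 percent of the genes compared), and 988 were at least 4-fold lower (11.7 percent). The median log2 ratio over all these genes was −0.25, with 3247 genes above and 5210 below 0. These counts describe cells chosen on *Dbi* and lipid genes in the same library and carry no p-value. Each UMI stands for 1 captured transcript end, so CPM values were not divided by gene length.

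Among the 18 pathway lists the mevalonate and sterol pathway had the highest median ratio. Of its 24 genes at or above 10 CPM, 14 were at least 4-fold higher and 0 lower, and their median log2 ratio was 2.43. Together they made up 20802 CPM of SEB, 1782 of the other cells and 1175 of the keratin-expressing cells. Promoter sequence is shown for 4 enzymes of this pathway, because 16 of the 18 genes of the list with an entry in the RefSeq promoter table (GRCm38.p6) held the letters CCAAT on either strand, which is 88.9%. The motif was sought in windows from 250 bases before to 50 bases after the annotated start, and 41.1% of 27025 genes with a promoter held CCAAT there. Only bases before the start are printed, 250 each and 233 for *Lss*, 5′ to 3′ on the strand of the gene, and capitals mark CCAAT or its complement ATTGG.
Hmgcs1: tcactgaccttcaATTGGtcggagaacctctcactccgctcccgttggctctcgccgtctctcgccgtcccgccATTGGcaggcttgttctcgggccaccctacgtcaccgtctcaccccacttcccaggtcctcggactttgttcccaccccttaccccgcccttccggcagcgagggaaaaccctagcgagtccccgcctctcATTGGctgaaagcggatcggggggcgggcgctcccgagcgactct
Mvd: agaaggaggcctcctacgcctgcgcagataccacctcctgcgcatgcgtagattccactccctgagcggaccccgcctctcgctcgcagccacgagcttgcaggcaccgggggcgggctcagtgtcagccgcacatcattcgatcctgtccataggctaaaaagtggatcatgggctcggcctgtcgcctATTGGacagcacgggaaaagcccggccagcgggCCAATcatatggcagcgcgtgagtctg
Mvk: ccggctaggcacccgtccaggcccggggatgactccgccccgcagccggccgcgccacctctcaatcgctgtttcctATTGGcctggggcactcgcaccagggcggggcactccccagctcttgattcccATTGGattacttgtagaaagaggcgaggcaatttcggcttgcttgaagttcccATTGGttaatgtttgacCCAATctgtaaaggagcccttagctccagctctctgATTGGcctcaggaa
Lss: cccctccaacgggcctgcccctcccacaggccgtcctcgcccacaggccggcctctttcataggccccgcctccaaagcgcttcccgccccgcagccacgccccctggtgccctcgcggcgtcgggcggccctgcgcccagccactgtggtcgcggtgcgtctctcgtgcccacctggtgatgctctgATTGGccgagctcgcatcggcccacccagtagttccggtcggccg

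The upstream bases of *Idi1*, *Idi2*, *Acat2* and *Cyp51*, taken in the same way and 145, 250, 228 and 201 long, hold the letters 0 times and are not printed. *Idi1* and *Cyp51* count among the 16 because the letters occur elsewhere in a promoter window of the gene, outside these upstream bases. The printed windows lie at chr13:119690101-119690350 (plus strand) for *Hmgcs1*, chr8:122443423-122443672 (minus strand) for *Mvd*, chr5:114444019-114444268 (plus strand) for *Mvk* and chr10:76531355-76531587 (plus strand) for *Lss*, each upstream of the first annotated exon. The printed bases hold the letters 3, 2, 5 and 1 times, respectively. CCAAT was found for 14 of 22 leading genes (63.6%), for 67 of 122 genes higher in SEB (54.9%), for 302 of 731 genes lower in SEB (41.3%), and for 2 of 21 genes of the list of secreted proteins (9.52%). Other lists did not follow this order. The letters were found for 2 of 7 desaturase genes (28.6%), although that list was higher in SEB. They were found for 10 of 17 immediate early and stress genes (58.8%) and 4 of 5 cycling genes (80%), whose lists were lower in SEB. The sterol regulatory motif TCACNCCAC was rare, at 1.44% of all genes, and within the pathway it occurred in *Hmgcs1* only, 1 of 18 genes (5.56%). The nuclear receptor motif AGGTCA occurred in 3 of 18 genes (16.7%) against 18.1% of all genes. The motifs cannot contain one another, and a match of letters is a description of the window, not evidence of a bound site.

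*Hmgcs1*, which makes HMG-CoA, stood at 2342 CPM in SEB and 224 in the other cells. *Mvk* and *Mvd*, the kinase and the decarboxylase of mevalonate, were at 148 and 12.5 and at 190 and 15.6. All 3 were at least 10-fold higher in SEB. *Idi1*, the isomerase that yields the isoprenoid building block, was the most abundant gene of SEB after *Dbi* when mitochondrial and ribosomal protein genes were left out, with 12605 CPM against 600 (log2 4.39, interval 4.36 to 4.43). It was seen in 316 SEB, with 97.8 UMIs per 10000 in the median and 367 in the highest cell. After *Idi1* the levels were lower. *Lss*, which closes the sterol ring, had 172 and 19.8 CPM, and *Tmem97*, an endoplasmic reticulum protein tied to cholesterol transport, 881 and 78.9. *Ggps1*, the branch toward geranylgeranyl groups, showed no such surplus with 20.6 and 22.8 CPM, nor did *Sc5d* with 8.44 and 11.3 or *Dhcr7* with 2.81 (6 UMIs in SEB) and 8.91, both late steps toward cholesterol.

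Fatty acid synthesis was higher as well, with 5 of 11 genes at least 4-fold higher, 0 lower and a median log2 ratio of 1.88. For this list and the desaturases below, the shares over all genes were 1.86 percent higher and 11.7 percent lower. *Olah*, a thioesterase that releases medium-chain fatty acids from the synthase, stood at 1014 CPM against 75.2 and was found in 302 SEB. *Acacb*, an acetyl-CoA carboxylase of the mitochondrial surface, was at 69.9 against 5.71, whereas *Acaca*, its cytosolic partner, was at 69.0 against 33.3. *Me1*, a source of NADPH, was at 674 and 155 CPM. The carboxylase forms thus differed in their surplus at equal level in SEB.

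Of 10 desaturase genes 5 were at least 4-fold higher, 0 were lower and the median was 2.10. *Scd1* reached 34.9 UMIs per 10000 in the median SEB and 177 in the highest. *Fads2*, the first desaturase of polyunsaturated fatty acids, stood at 995.4 CPM against 65.2 and *Fads1* at 110 against 13.4. *Scd2*, the close relative of *Scd1*, did not share the pattern, with 27.7 CPM against 46.4. Members of the *Scd* and *Acot* families are similar in sequence, and reads shared between copies may have been lost or split in counting.

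Elongation was uneven, with 2 of 8 genes higher, 2 lower and a median of 0.93. Over all genes 1.86 percent were higher and 11.7 percent lower, and for 8 genes the 2 lower are not far from the latter share. The common subunits of the elongation cycle were high: *Hacd2*, the dehydratase, stood at 2718 CPM against 273, *Hsd17b12*, the reductase, at 1212 against 148, and *Tecr* at 1724 against 516. The chain-specific elongases were scarce. *Elovl1* was at 61.0 CPM and *Elovl5* at 6.57, while *Elovl4* and *Elovl7* held 2.81 and 1.41 against 39.4 and 14.2 in the other cells. *Elovl6* had no UMI in SEB, which allows at most 1.41 CPM (3 UMIs), and 6.93 CPM in the other cells.

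The plot of leading genes shows where else the surplus lay. The 30 leading genes have the largest ratios of the 1128 genes that reached 100 CPM in SEB and were detected in 20% of them or more, and their log2 ratios ran from 2.97 to 5.06. *4833423E24Rik*, a gene without an established function, led with 1263 CPM against 38.0, but it had UMIs in 98 SEB only and 68.9% of them came from 10 cells. *Fa2h*, which hydroxylates fatty acids at the second carbon, was at 205 against 10.4, *Acot5*, a peroxisomal thioesterase, at 452 against 27.2, and *Crat*, the carnitine acetyltransferase, at 407 against 27.2. *Mgll*, the monoglyceride lipase, was at 3260 against 223 and was found in 310 SEB. *Cyp2b19*, an epoxygenase of keratinocytes, was at 104 against 6.55, and *Ppa1*, which removes pyrophosphate, at 1864 against 163. *Acsl1*, *Acbd7*, *Agpat3* and *Mboat2*, which activate, bind or transfer acyl chains, had log2 ratios of 2.97, 3.54, 3.29 and 3.54. *Syngr1*, *Lhpp* and *Echdc1*, which are not lipid synthesis enzymes, had 3.59, 3.24 and 3.17.

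**Figure D2:**
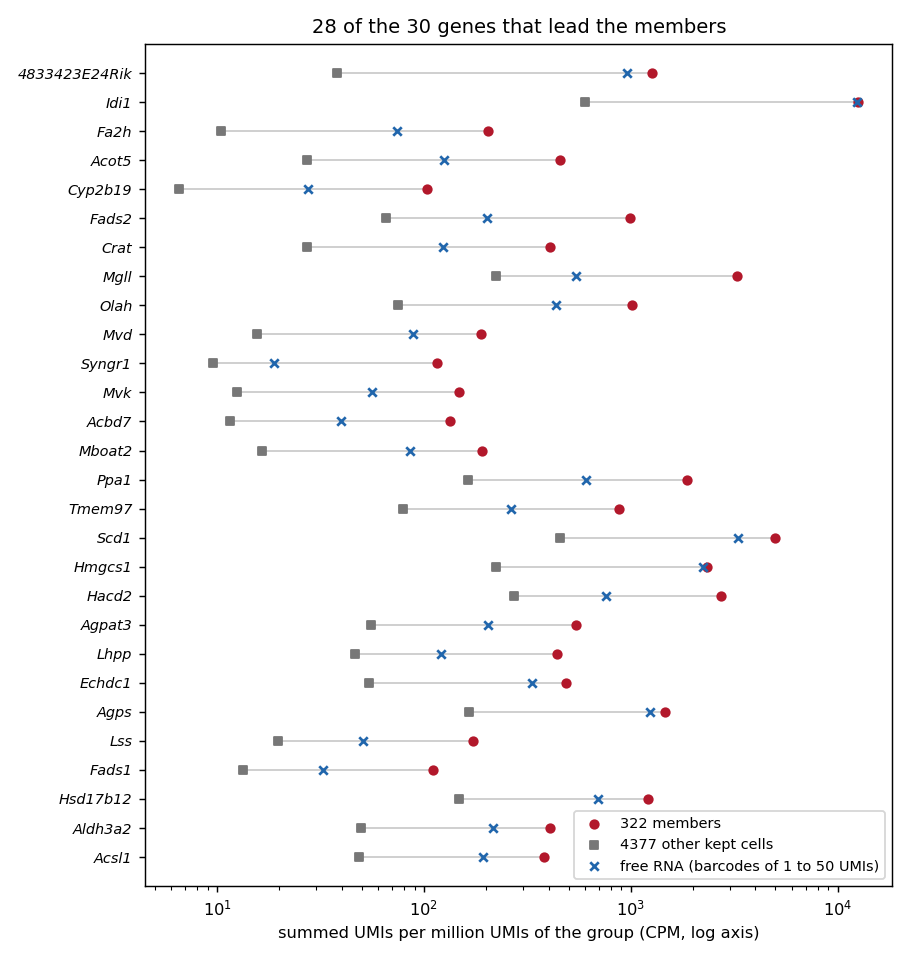
Summed expression (CPM, log axis) of 28 of the 30 leading genes in the 322 SEB (red circles), the 4377 other kept PG cells (grey squares) and the free RNA of barcodes with 1 to 50 UMIs (blue crosses). On this scale SEB are to the right of both for all 28 genes, and free RNA lies between SEB and the other cells. The free RNA values are lowered by *Gm42418*, which made up 236430 CPM of it.

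Free RNA of the PG library carried the same genes. Summed over 283455 barcodes of 1 to 50 UMIs, 1971694 UMIs in all, each of the 30 leading genes was above its level in the other kept cells, and the other cells stood at 22.1% of free RNA in the median. In CPM of all genes, SEB were above free RNA for all 30, at least 2-fold for 20 of them, and by a median of 2.64-fold. The predicted gene *Gm42418* alone made up 236430 CPM of free RNA and 8381 of SEB, which lowers the free RNA values of other genes. Free RNA was not rescaled without this gene, so small surpluses over free RNA depend on the scaling. *Idi1* was at 12605 CPM in SEB and 12424 in free RNA, *Hmgcs1* at 2342 and 2240, and *Soat1* at 452 and 457, so SEB were at about the level of free RNA for these genes. *Mgll*, *Fads2* and *Syngr1* exceeded it clearly, with 3260 and 542, 995.4 and 201, and 115 and 18.8 CPM. In cells thinned to 1000 UMIs, *Fads2* had a UMI in 52.2% of SEB (interval 46.6 to 57.7%), in 2.82% of collagen-expressing cells and in 2.41% of *Ptprc*-expressing cells. Whether those cells express it at a low level was not tested. For *Idi1*, an enzyme of general metabolism, these shares were 90.4, 37.3 and 33.7%.

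Peroxisomes were well represented. Of 47 genes for ether lipids and peroxisomes, 11 were at least 4-fold higher, 2 were lower, and the median was 1.56. The shares over all genes were 1.86 and 11.7 percent. *Agps*, which sets the ether bond, stood at 1466 CPM against 164, *Scp2*, the sterol carrier and thiolase, at 1944 against 465, and *Pecr*, a trans-enoyl-CoA reductase, at 705 against 94.6. Membrane proteins of the organelle were also high, with *Pex11g* at 93.8 against 14.2 and *Pxmp4* at 199 against 27.5. *Crot* and *Phyh*, which handle branched and shortened chains, were the exceptions at 2.81 against 23.0 and 7.51 against 31.1.

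Without the rule genes, 2 of 11 genes for wax, triglyceride and sterol ester synthesis were higher, 0 were lower and the median was 1.35. These counts stand beside 1.86 percent higher and 11.7 percent lower over all genes. *Far1*, the peroxisomal reductase that makes fatty alcohols, was at 549 CPM against 41.1, and *Agpat3* at 541 against 55.2. *Dgat1* and *Dgat2*, which complete triglycerides, were low at 36.6 and 53.0 CPM, against 22.1 and 17.7. *Awat1*, *Soat2* and *Mogat2* held no or almost no UMIs in the gland. The ratio of *Far1* rested on the few *Awat2*-rich SEB described below, and without those cells the median of the list was 0.56.

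Among lipid droplet and lipolysis genes, again without the rule genes, 4 of 10 were higher, 0 lower and the median was 1.88. *Pnpla5*, a lipase of the patatin family, stood at 76.9 CPM against 0.46 but was seen in 21 SEB only. *Abhd5*, the activator of triglyceride lipase, was at 202 against 49.7 and *Lpl* at 385 against 91.5. *Plin1* held no UMI in SEB and *Plin4* 1.88 CPM. For fatty acid uptake and activation 4 of 18 genes were higher, 1 lower and the median was 0.25. The counts of both lists stand beside 1.86 percent higher and 11.7 percent lower over all genes. *Slc27a4* was at 284 CPM against 45.7, *Fabp5* at 4250 against 1649, and *Fabp4*, of fat and endothelial cells, at 4.22 against 263.

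For energy metabolism the gene ratios stayed below 4-fold. None of 16 genes for mitochondrial fatty acid oxidation (0 of 16) and none of 23 genes of the respiratory chain (0 of 23) passed 4-fold in either direction. Over all genes 1.86 percent were at least 4-fold higher and 11.7 percent lower. For lists this short, 0 higher genes is near the former share. The list medians were 1.06 and 0.54, with 14 and 22 genes above 0, against −0.25 for all genes. *Hadh* stood at 570 CPM against 184 and *Atp5g1* at 2020 against 842, while *Cpt1a*, which admits long chains into mitochondria, was at 37.1 against 47.0. Sphingolipid genes had 1 of 17 higher, *Sgpp1*, with 706 CPM against 164, and 1 lower, *Asah1*, with 0 UMIs against 19.4 CPM. For a list of 17 genes these counts are near the shares of all genes (1.86 and 11.7 percent). Detoxification genes had 4 of 23 higher and 6 lower, beside 1.86 and 11.7 percent of all genes. Their median of 0.02 changed sign in 3 settings, to as low as −0.75. *Ephx2* and *Aldh3a2*, the fatty aldehyde dehydrogenase, were at 587 against 81.8 and at 405 against 49.5. *Gstm1*, *Aldh3a1* and *Alox12e* were at 26.7 against 212, 23.0 against 242 and 17.4 against 256.

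**Figure D3:**
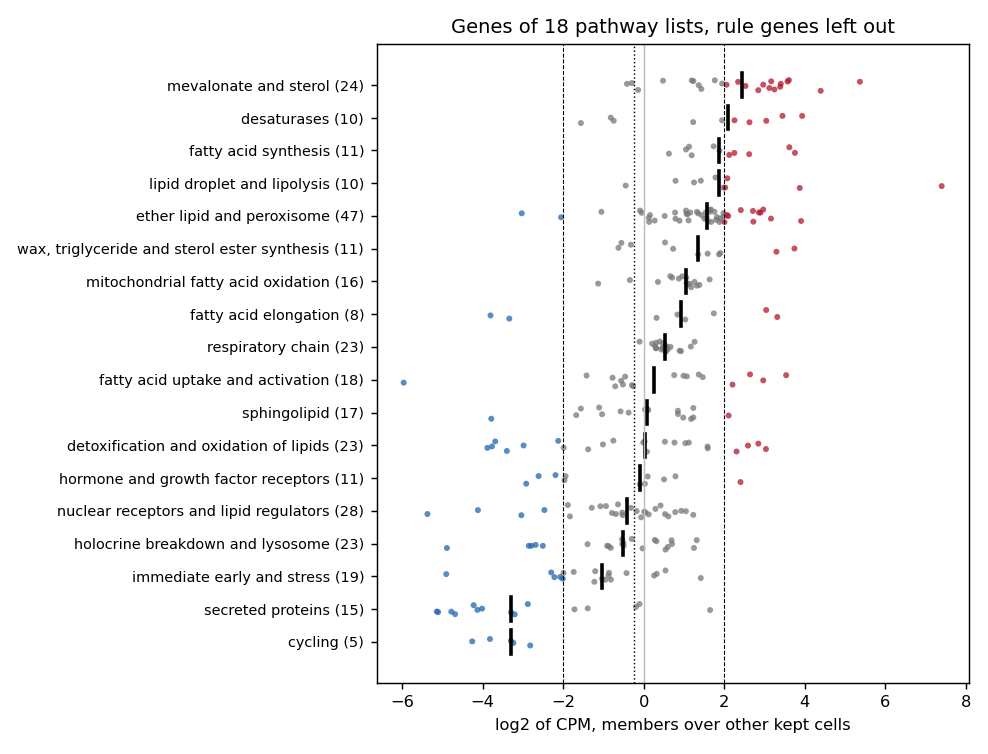
Each point is 1 gene with at least 10 CPM, placed by its log2 ratio of SEB over other kept PG cells, for 18 lists (number of genes in brackets) ordered by their median (black bar). Dashed lines mark 4-fold, red and blue points lie beyond them, and the dotted line at −0.25 is the median of all genes; lipid synthesis lists lie to the right and secreted proteins and cycling to the left.

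Of 28 nuclear receptors and lipid regulators, 0 were at least 4-fold higher and 4 lower, shares near those of all genes (1.86 and 11.7 percent), and their median was −0.42. *Srebf1* and *Srebf2*, which drive fatty acid and sterol genes, were at 301 against 209 and 115 against 74.97 CPM, and *Scap*, their escort protein, at 222 against 94.9. *Gata6* and *Klf5*, factors of duct and basal cells, were at 0.47 against 19.4 (1 UMI in SEB) and 1.88 against 32.6. Receptors other than *Mc5r* had 1 of 11 higher and 3 lower, with *Ffar4*, a fatty acid receptor, at 22.5 against 4.26 and *Egfr* at 25.3 against 99.1.

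The strongest deficits among the pathway lists were in secreted proteins and in the cell cycle. Of 15 secreted proteins 10 were at least 4-fold lower, 0 were higher and the median was −3.29. *Slpi* and *Wfdc18*, protease inhibitors, were at 33.8 against 592 and 24.9 against 402 CPM, and *Defb1* and *Defb6*, defensins, at 21.6 against 403 and 115 against 1131. *Lcn2*, *Apoe* and *Cck* were exceptions at 2332 against 2667, 6697 against 7208 and 308 against 807. All 5 cycling genes were lower, with *Mki67* at 9.85 against 92.9. Other lists had smaller deficits, beside the 11.7 percent of all genes that were lower and their median of −0.25. Lysosomal and breakdown genes had 0 of 23 higher and 5 lower (median −0.51, and 0.13 for SEB of at least 400 *Dbi* per 10000), among them *Ctsl*, at 31.4 against 227, and immediate early and stress genes had 0 of 19 higher and 5 lower (median −1.04), among them *Dusp1*, at 4.69 against 140. *Dnase2a*, a lysosomal nuclease, stood at 97.1 against 41.0.

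The 15 lowest genes included immunoglobulin genes (*Igkv8-24* and *Igkv6-15* with 0 UMIs, *Igkv3-2* with 1 and *Igha* with 5 UMIs in SEB), the stromal genes *Igfbp6*, *Fn1*, *Ecm1*, *Mgp* and *Clec3b*, the chemokines *Ccl2*, *Ccl4* and *Ccl7*, and *Tagln*, *Id3* and *Fabp4*. *Mgp* stood at 5.16 CPM in SEB and 2552 in collagen-expressing cells, and *Ccl4* at 5.63 and 8917 in *Ptprc*-expressing cells. Immunoglobulin variable segments resemble each other and their counts are uncertain. Without mitochondrial and ribosomal protein genes, the most abundant transcripts of SEB after *Dbi* and *Idi1* were *Mgst1*, *Gm42418*, *Apoe*, *Lgals7*, *Eef1a1* and *Ppia*. *Gm42418*, a predicted gene that overlaps ribosomal RNA sequence, was at 8381 CPM in SEB, 15957 in the other cells and 236430 in free RNA.

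Next to SEB among the kept barcodes were 655 with UMIs in 2 or more lipid genes but less *Dbi*. Their mevalonate and sterol sum was 3838 CPM, between 20802 in SEB and 1175 in the 2145 keratin-expressing cells. *Idi1* was at 1559 CPM, *Scd1* at 1286 and *Fads2* at 192 in them. Each of the 30 leading genes was higher in these barcodes than in all other cells together. Their basal marker sum of 2827 CPM and duct sum of 11629 were above the 1184 and 1923 of SEB.

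The spread of counts over SEB was examined gene by gene. Over 1234 genes with at least 100 CPM, the median variance over mean of thinned counts was 1.05 and 41 genes were above 2. At this depth the ratio stays near the counting value of 1 for genes of low level even where cells differ. The largest were *Cst6* with 72.3, *Awat2* with 17.2, *4833423E24Rik* with 16.9, *Gm42418* with 11.1, *Defb6* with 8.70, *Idi1* with 8.16, *mt-Co1* with 7.75, *Far1* with 7.46, *Idi2* with 7.26 and *Krtdap* with 5.48. For several of these a handful of cells held nearly all UMIs. The 10 richest SEB held 66.3% of the *Awat2* UMIs, 81.6% of *Far1*, 98.3% of *Idi2* and 82.2% of *Cst6*, but 7.76% of *Dbi* and 13.1% of *Idi1*. A single cell contributed 905 *Cst6* UMIs, 1419 per 10000.

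The spread of *Awat2* led to a division that was chosen after its values were seen. No *Awat2* UMI was found in 229 SEB (71.1%), 59 (18.3%) held less than 20 per 10000, and 34 (10.6%) held 20 or more and 94.96% of all *Awat2* UMIs. The 34 ranged from 21.5 to 406 per 10000 with a median of 60.4. They had a median of 460 *Dbi* UMIs per 10000, and 32 of the 34 lay above the SEB median. Their median depth was 8780.5 UMIs and their median mitochondrial share 6.76%, against 6231 UMIs and 3.13% in the SEB without *Awat2*. The part of depth and of the mitochondrial share in the differences below was not tested. Thinned to 1000 UMIs, both groups had almost the same number of genes, with medians of 551.5 and 551.

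The 34 *Awat2*-rich SEB expressed several genes hardly seen in the other 288. With *Awat2* out of the denominator, 79 of 1426 genes with at least 100 CPM were at least 4-fold higher and 28 at least 4-fold lower, with a median log2 ratio of 0.23 over all of them. The genes named next were chosen after their values were seen. *Far1* was at 4399 CPM against 13.9, with UMIs in 27 of the 34 cells and in 8.68% of the others. Without the 34 cells, *Far1* was lower in SEB than in the remaining gland, and so was *Idi2*. *Idi2*, the paralog of *Idi1*, was at 1552 against 2.14 and was seen in 11 of the 34 and 4 other SEB. *Pnpla5* was at 622 against 1.07 in 20 of the 34. *Hopx* and *Acoxl* had 82 and 44 UMIs in the 34 cells and none in the other 288 (0 UMIs each).

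The rule gene *Soat1*, given as a description, was at 2240 CPM against 204. Several other genes higher in the 34 act on lipids. *Hilpda*, an inhibitor of triglyceride lipase, was at 1126 against 23.0, *Cd36*, a fatty acid receptor, at 142 against 1.07, *Gdpd1*, a lysophospholipase, at 934 against 24.1, and *Tmem189*, the desaturase that forms plasmalogens, at 788 against 78.1. *Aldh3a2* was at 1844 against 205, *Selenos*, of the endoplasmic reticulum, at 2789 against 172, and *4833423E24Rik* at 9370 against 136 with UMIs in all 34. Summed over lists without the rule genes, wax, triglyceride and sterol ester genes were at 6796 against 817.2 CPM (log2 3.06, interval 2.96 to 3.16), most of it *Far1*. Droplet genes had a log2 ratio of 1.82, desaturases 1.49 and mevalonate genes 1.09. The median gene of the wax list with *Soat1* did not go the same way (−0.13, with 5 of 11 genes above 0). Duct markers were also higher in the 34, at 5547 against 1421 CPM, or 909.7 without the cell richest in *Cst6*. Immediate early and stress genes were at 3023 against 1905 CPM, with 14 of 18 genes above 0, and their part in the differences was not tested.

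Other genes were scarce in the 34. *Cck*, the peptide hormone cholecystokinin, was at 19.2 CPM against 348, *Gsta3* at 3.84 against 121 (1 UMI in the 34), *Cyp2f2* at 142 against 952, *Adh7* at 11.5 against 130 and *Mt1* at 26.9 against 415. *Srebf1* was at 65.3 against 334 although the desaturase and mevalonate sums were higher. *Cyb5a*, which feeds electrons to desaturases, was at 23.1 against 199, and *Ucp2* at 161 against 756. The sum of secreted proteins was lower, at 3384 against 10495 CPM (log2 −1.63; median gene −0.37), while the respiratory chain differed little (log2 −0.12).

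**Figure D4:**
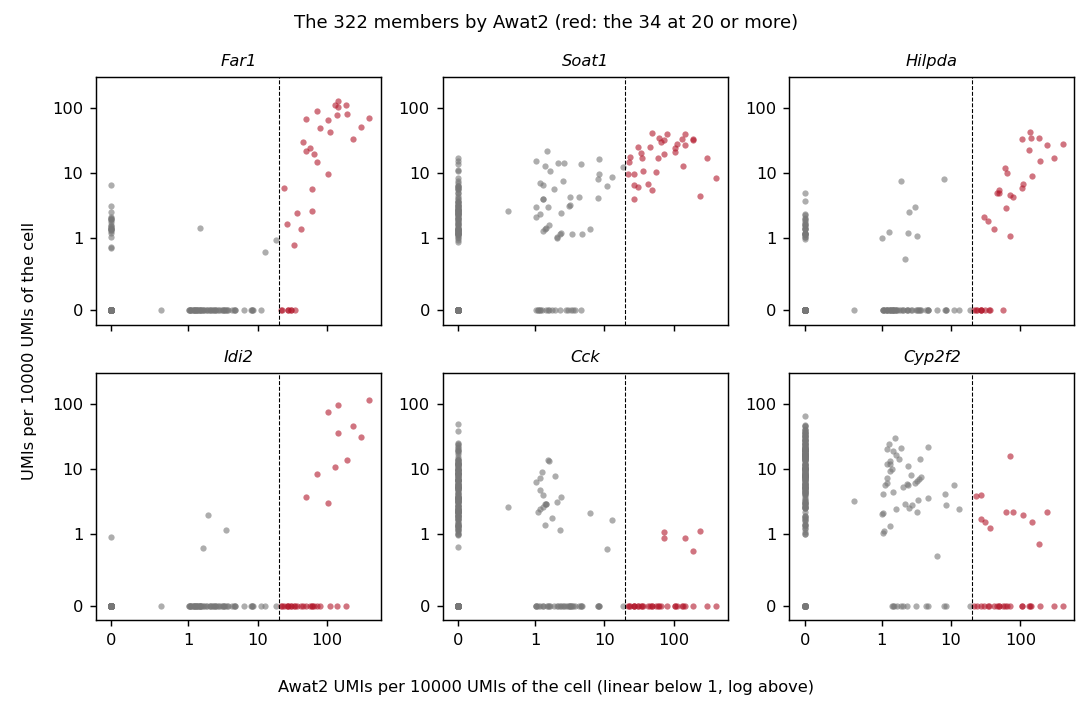
Each point is 1 of the 322 SEB, with *Awat2* UMIs per 10000 on the x axis and another gene on the y axis (both linear below 1 and logarithmic above); the 34 SEB at 20 or more are red, right of the dashed line. *Soat1* is above 0 in all red cells, *Far1* in 27, *Hilpda* in 24 and *Idi2* in 11, and *Cck* and *Cyp2f2* are mostly at 0 there.

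To follow the range of *Dbi*, SEB were ranked by *Dbi* per 10000 and divided into 4 groups of 81, 81, 80 and 80 cells with *Dbi* medians of 219, 269, 331 and 443, and *Dbi* was left out of the denominator. The mevalonate and sterol sum was 9689, 16724, 26267 and 32424 CPM from the lowest to the highest group, and the desaturase sum 3893, 5276, 7431 and 11426. Both were higher at each step. The wax, triglyceride and sterol ester genes without the rule genes were at 616, 1297, 1426 and 3042 CPM, and without *Far1*, which few cells carry, at 593, 777, 1045 and 1695. As a description of rule genes, *Awat2* was at 16.8, 646, 556 and 4353 CPM and *Soat1* at 69.2, 265, 397 and 1139. The respiratory chain sum hardly moved, from 21663 to 24050. *Cck* was at 604, 391, 214 and 84.1 CPM, *Gsta3*, likewise named after its values were seen, at 231, 123, 82.2 and 12.01, and *Cyp2f2* at 1451, 1113, 688 and 302. The secreted proteins together were at 12762 CPM in the lowest and 6654 in the highest group, but by gene 5 of 10 were above 0 and the median log2 ratio was −0.13.

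Of 1428 genes with at least 100 CPM in a group, 183 were at least 2-fold higher and 93 at least 2-fold lower in the highest than in the lowest *Dbi* group, with a median log2 ratio of 0.13. A steady order over all 4 groups was found for 310 genes upward and 177 downward, and the other genes had none. Among genes picked after their values were seen, *Gja1*, a gap junction protein, was at 199 CPM in the lowest and 40.0 in the highest group, *Sfrp1*, a Wnt antagonist, at 132 and 30.02, and *Phgdh*, of serine synthesis, at 138 and 20.01. The median mitochondrial share was also higher at each step, with 2.47, 3.22, 4.62 and 4.96%. The duct markers stood at 1499, 1046, 802 and 4769 CPM, and the last value was 2881 without the cell richest in *Cst6*. Fibroblast markers, at 98.5, 30.3, 14.3 and 230 CPM, were also highest in the last group. Suprabasal markers were lower there, at 134 against 352 CPM in the lowest group. Median depth was 5978, 6961, 7248 and 6486 UMIs, without an order. The part of the mitochondrial share and of markers of other cell types in the differences between the *Dbi* groups was not tested.

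**Figure D5:**
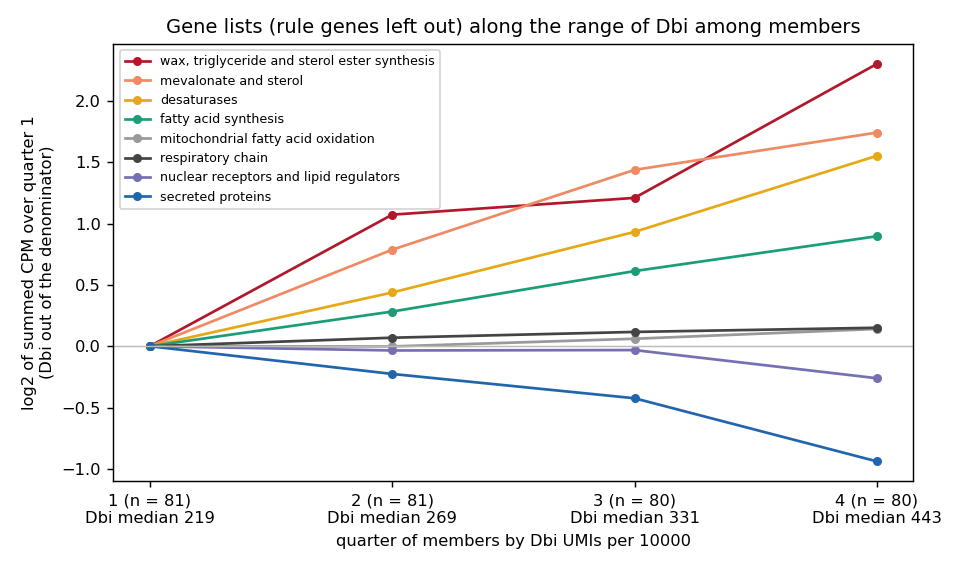
Summed CPM of 8 gene lists in 4 groups of SEB ranked by *Dbi*, as log2 over the lowest group, with *Dbi* out of the denominator. The rule genes are left out of every list, and the wax list still holds *Far1*. Wax, mevalonate and desaturase genes are higher toward the *Dbi*-rich end, respiratory chain and fatty acid oxidation end at 0.15 and 0.14, and the sum of secreted proteins is lower.

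Basal keratins gave a further view. After thinning to 1000 UMIs, 143 SEB had no UMI of *Krt5* or *Krt14*, 147 had 1 or 2, and 32 (9.94%) had 3 or more, compared with 1865 of the 4377 other cells (42.6%). Lipid genes differed in both directions between the 32 keratin-positive SEB and those without keratin. The wax, triglyceride and sterol ester sum without the rule genes was 2996 CPM against 1181, or 1423 against 969 without *Far1*, and *Idi2*, which few cells carry, was at 948 against 5.4. *Cst6* was at 9133 against 340 CPM and the duct marker sum at 10508 against 811. Without the single cell richest in *Cst6* these values of the 32 were 4407 and 5517. Their mevalonate sum was lower, at 14474 against 22725, as were fatty acid synthesis, at 2150 against 3273, and genes for ether lipids and peroxisomes, at 8638 against 9564. Their median *Dbi* was 261 per 10000 against 304.

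Cells of PG were set beside cells of back skin by a common rule without *Dbi*, UMIs in 3 or more of the 6 lipid genes. The rule found 350 PG cells, 203 of them among the 322 SEB, and 18 skin cells with 108029 UMIs, so that 3 UMIs in the skin group equal 27.8 CPM. No kept skin cell passed the full rule with *Dbi* (0 of 8899, with an exact 95% upper bound of 0.0414%). Tissue and library cannot be told apart here, and the skin matrix lists 6794880 barcodes against 737280 for PG although the same kit is named for both. The skin cells also held more of the fibroblast markers (3305 against 168 CPM) and suprabasal markers (7628 against 318) and of immediate early and stress genes (5628 against 1800), and the part of such transcripts in the values was not tested. Over 3120 genes the median log2 ratio of gland over skin was −0.10.

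*Dbi* was at 26482 CPM in the PG cells and 231 in the skin cells (log2 6.84, interval 6.28 to 7.47). This log2 ratio was 3.66 when only 2 lipid genes were required in both tissues. *Idi1* was at 11203 and 1518, and *Mgst1* at 8803 and 3795. *Lcn2*, *Agps*, *Fads2*, *Olah* and *Cyp2f2* had no UMI in the skin cells and 2618, 1336, 857, 838 and 871 CPM in the PG cells. *Far1* had 508 CPM against 9.26, 1 UMI in skin, and *Pecr* 622 against 18.5, 2 UMIs. Skin cells were higher in *Elovl6*, with 4267 CPM against 1.73 in the gland, and *Elovl4*, with 2277 against 8.64. With 2 lipid genes required, their log2 ratios went from −11.27 and −8.04 to −9.28 and −5.07. The cells of both tissues were selected on the 6 lipid genes, whose levels are therefore only a description: in gland and skin *Awat2* was at 1257 and 74.1 CPM (8 UMIs in skin), *Elovl3* at 10.4 and 305, and *Cidea* at 589 and 2786. *Far2*, the second fatty acyl-CoA reductase, was at 380 in skin from 41 UMIs and at 0.43 in the gland from 1 UMI. *Fasn* stood at 463 and 389 CPM, a log2 ratio of 0.25 with an interval of −0.19 to 0.73, and *Scd1* at 4653 and 6748, a ratio that turned with the number of lipid genes required.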

How the data were processed

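Back skin and PG cells were measured by droplet-based 3′ single-cell RNA sequencing, with 1 library per tissue pooled from 3 mice. The authors deposited UMI counts per gene and barcode, not normalized and not filtered for cells. The submitters' processing notes name Cell Ranger and the build mm10, and the version 4 is given for Cell Ranger. The PG library held 26288071 UMIs in 309839 barcodes and the back skin library 37675226 in 571670. Of the barcodes, 4699 and 8899 passed the filters, 13598 in all, while the study's methods speak of about 10000 cells.

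The members and gene lists were chosen with earlier results of these data known. UMIs were summed over cells and expressed as CPM. Ratios were given with exact (Clopper-Pearson) 95% intervals of the split of UMIs, single levels with exact Poisson intervals, and a group at 0 UMIs was set to 3 UMIs. A gene was called at 4-fold with an interval that left out equality, among genes of at least 10 CPM. The named genes were the 7 rule genes, the 30 leading, 15 most abundant, 15 lowest and 10 most variable genes, the 10 genes at each end of the skin comparison, and genes of the 18 pathway and 11 marker lists. Ribosomal protein and mitochondrial genes were left out of the first 3 rankings, and some genes are not reported. Shares of cells were computed after thinning to 1000 UMIs where the text says so and otherwise at full depth. No upper UMI limit was set and doublets were not removed in the values reported. A doublet score marked 177 kept barcodes, 14 of them members, for an alternative. On simulated data for members against the other cells (8208 genes), intervals covered the true ratio for 95.7% of genes, 98% of 8-fold changes were called and 0 unchanged genes. The simulated sums held Poisson counting error only, which the intervals assume, so this is a check of the computation. Spread between cells or mice was not simulated. Python 3.11.15 with numpy 2.4.6, scipy 1.17.1, pandas 2.3.3, scikit-learn 1.9.0 and matplotlib 3.10.9 was used. Promoter sequences are from RefSeq (GRCm38.p6). Alternatives covered the rule, the barcode filters, doublets, scaling, free RNA and the call. Some were added after seeing the data, among them those without the *Awat2*-rich SEB and without SEB with markers of another class.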

Additional observations from a re-analysis of the deposited data

Results flagged for a closer look

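For 8 of 278 named genes with values in both tissues, cells with 3 or more lipid genes lay on opposite sides of the other kept cells in PG and in back skin. The 278 include the 10 genes at each end of the skin comparison, which were chosen for their difference between the tissues. *Dbi*, *Elovl6*, *Elovl4* and *Acadl* are among these, and the same count over all genes was not made. Each difference between the tissues was not tested, since there is 1 library of each and only 18 such cells in skin. *Dbi* had a log2 ratio of 2.10 in PG and −2.43 in skin, where 25 UMIs were counted in the 18 cells. The elongases *Elovl6*, with −1.96 in PG and 6.88 in skin, and *Elovl4*, with −2.17 and 4.79, showed the opposite order. They had 461 and 246 UMIs in the skin cells but only 4 and 20 in the PG cells. *Acadl*, an acyl-CoA dehydrogenase of mitochondria, had −4.27 in PG from 1 UMI and 2.44 in skin from 34. *Adh7* had −1.37 and 1.31, and *Col3a1*, a fibroblast collagen, −3.18 and 1.43, beside a fibroblast marker sum of 3305 CPM in the skin cells. *Dhcr7*, with −1.57 and 1.92, and *Adm*, with −2.06 and 1.67, rest on 7 to 9 UMIs in each tissue.

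Among barcodes left out for a mitochondrial share above 10%, 36 of 662 PG barcodes met the rule, which is 5.44% (interval 3.84 to 7.45%), and 0 of 232 in back skin. They had medians of 4628 UMIs, 13.1% mitochondrial UMIs and 303 *Dbi* UMIs per 10000, and 7 of them were rich in *Awat2*. All 30 leading genes were higher in them than in the other barcodes above 10%. *Idi1* was at 17983 CPM, *Scd1* at 9058 and *Soat1* at 1142, beside 12605, 4973 and 452 in the 322 SEB.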

How the results depend on the processing

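With *Dbi* of at least 100 or 400 per 10000, 597 (12.7%) or 59 (1.26%) cells were members, and with 3 of the 6 lipid genes 203 (4.32%). The share was 10.5% at 1000 genes and 2000 UMIs, 5.44% at 200 genes and 500 UMIs, and 5.76% at 5% mitochondrial UMIs. At 2-fold, 636 genes were higher and 1957 lower. At 50 CPM 264 genes were lower, and without a filter beyond 10 UMIs 1712. The median surplus of leading genes over free RNA was 4.46-fold at a *Dbi* of 400, against 2.64-fold. The skin comparison had 977 and 77 cells in PG and skin with 2 lipid genes and 135 in PG with 4, and *Scd1* turned to 0.39 with 2. Of 30 values for 15 gland over skin ratios 13 more moved, among them *Dbi* from 6.84 to 3.66, *Elovl4* from −8.04 to −5.07 and *Cidea* from −2.24 to −0.81 with 2. *Igkv8-24*, with 0 UMIs in SEB, turned to 0.29 at 1000 genes and 2000 UMIs through the 3-UMI floor. Without the 34 *Awat2*-rich SEB, a division chosen after seeing the data, *Far1* turned to −1.56 and *Idi2* to −1.12. Without 97 SEB with 3 or more markers of another class, likewise added, *Idi2* turned to −0.13. The 30 leading genes stayed above 0 in all 17 settings and at 4-fold in each, except 29 genes at a *Dbi* of 400 and 29 without the *Awat2*-rich cells. Of 442 list medians under alternatives 48 moved by over 1.5-fold, and 8 values of 3 lists changed sign: sphingolipid from 0.09 to as low as −0.04, detoxification from 0.02 to −0.75, and lysosome from −0.51 to 0.13 (the last at a *Dbi* of 400). Of 6576 values of named genes 1434 moved and 4 reversed. No paired analysis was possible because each tissue has 1 library. Depth limits the skin side to 27.8 CPM, and with 1 library of pooled mice no value carries an error between animals.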
